A study of Mus musculus with 6 samples.

Results

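The urea cycle and glutamine metabolism were followed through 10 genes, matched by symbol in the deposited matrix of 22851 genes: Nags, Cps1, Otc, Ass1, Asl, Arg1, Gls2, Glud1, Glul and Oat. All 10 were present, and each was above 1 FPKM (a read level normalised to transcript length and library size) in all 6 libraries. The libraries are liver RNA from male mice of the inbred strain C57BL/6J, all kept on a high-fat diet (HFD). The 3 vehicle libraries are numbered 1, 2 and 4. The 3 treated libraries, ONX-0914 1, 3 and 4, come from mice given ONX-0914, an immunoproteasome inhibitor, at 10 mg/kg by subcutaneous injection on alternate days for 6 weeks. The design text gives 2 biological replicates per group against 3 libraries here, ages are not given, and no group on normal chow was analysed here. Because separate animals are not stated for each library, p-values measure the spread between libraries, which may in part be technical. Values of single libraries are given in the order of these numbers.

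Hepatocytes dispose of ammonia by 2 routes that sit in different parts of the lobule. Around the portal vein, glutaminase frees ammonia inside mitochondria and the urea cycle turns it into urea, with a high capacity and a low affinity. Around the central vein, a thin layer of hepatocytes holds glutamine synthetase, which captures the ammonia that escaped, and ornithine aminotransferase, which feeds it with glutamate. The question for these libraries was whether the periportal genes and the pericentral pair, Glul and Oat, differed alike between treated and vehicle livers.

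Of the 10 genes, 6 were lower with ONX-0914 and none was higher. These were Cps1, Ass1, Gls2, Glud1, Glul and Oat. Glul fell from 672 ± 110 to 246 ± 76.6 FPKM, and Cps1 from 444 ± 24.2 to 164 ± 111 (SD, n = 3 each). Asl and Arg1 kept 87.5% and 84.2% of their vehicle means, and Nags stood at 122%; none of these 3, nor Otc at 73.5%, passed the test. The test was limma with a variance trend on log2(FPKM + 1), with Benjamini-Hochberg adjustment over the 10743 genes above 1 FPKM in at least 3 libraries and a call at an adjusted p under 0.05. Of all genes tested 43.5% were called lower and 2.56% higher, so the count of 6 among 10 is close to that background. The values of 8 of the 10 genes did not overlap between groups and were lower with ONX-0914, beside 53.5% of all genes. The log2 difference is the treated mean minus the vehicle mean on the log2(FPKM + 1) scale. Its median was -0.73 for the 10 genes and -0.64 over all genes tested, and a pair of settings that centre the libraries is therefore set beside it. Median scaling gives every library a factor, its median ratio to the genes' geometric means, over genes above 0 in all 6 libraries. Length correction subtracts from each library a smooth trend of its values over transcript length.

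Depth and library state bear on every value below. Read totals were not given. From the steps between low values, the depths relative to vehicle 1 were 1.29 and 1.10 for vehicle 2 and 4 and between 0.86 and 1.00 for the treated libraries. These depths are coarse, since each rests on 25 to 53 genes with low, rounded values. ONX-0914 3 lay between the groups on the first principal component of log2 values (10.6, against 67.8 and 73.9 for the other treated libraries and -56.1 to -47.2 for vehicle). Of 16 hepatocyte markers 3 rose and 2 fell, with a summed level of 123930 to 128718 FPKM with vehicle, against 144820 to 193221 after treatment. After median scaling 8 rose and after length correction 7, but only 2 after quantile normalization, and none fell in these 3 settings. All 15 endothelial markers fell, with sums of 229 to 236 and 38.3 to 71.5 FPKM, with 12 lower after median scaling and 11 after length correction. Of 13 tested macrophage markers 10 fell (4 and 8 in those settings), with sums of 1594 to 2380 and 796 to 1125. Of 12 stellate cell markers 9 fell (6 and 3), with sums of 285 to 350.2 and 64.8 to 144. These counts stand beside 43.5% of all genes lower and 2.56% higher as deposited. The shares were 13.7% and 14.3% after median scaling, 11.4% and 9.52% after length correction, and 12.4% and 10.4% after quantile normalization. Sums of 12 leukocyte markers were 321, 284 and 1712 FPKM in the vehicle libraries, against 2012, 173 and 4305 in the treated ones, so that vehicle 4 and ONX-0914 1 and 4 were high. Of 8 tested leukocyte markers 1 fell and none rose as deposited. Cd3e, Cd79a, Ms4a1 and Ly6g were at 0 in at least 1 treated library, so the high sums do not describe the whole list. In bulk liver, fewer cells of a type and less RNA per cell cannot be told apart. The part of these shifts in the results was not tested.

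Upstream sequences of 250 bases are shown for Glul and Oat, the pericentral pair, and for Nags, the one gene of the 10 with a treated mean above vehicle as deposited. They come from RefSeq, build GRCm38.p6, which held 6 of the 10 genes (Otc, Ass1, Nags, Glul, Oat and Glud1). Capitals mark matches, on either strand, to the CCAAT box, the GC box GGGCGG, the TATA box TATAAA, the E-box CACGTG, the CRE core TGACG and CTTTGA, the core read by TCF/LEF, the factors of Wnt signalling. The Glul stretch is chr1:153899679-153899928 (plus strand), that of Oat chr7:132576399-132576648 (minus strand) and that of Nags chr11:102145263-102145512 (plus strand).
Glul: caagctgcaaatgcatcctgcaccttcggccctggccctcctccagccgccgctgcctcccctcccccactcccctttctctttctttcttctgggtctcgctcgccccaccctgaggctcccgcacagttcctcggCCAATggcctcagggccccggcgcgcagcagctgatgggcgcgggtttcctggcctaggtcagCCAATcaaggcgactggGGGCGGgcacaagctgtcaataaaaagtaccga
Oat: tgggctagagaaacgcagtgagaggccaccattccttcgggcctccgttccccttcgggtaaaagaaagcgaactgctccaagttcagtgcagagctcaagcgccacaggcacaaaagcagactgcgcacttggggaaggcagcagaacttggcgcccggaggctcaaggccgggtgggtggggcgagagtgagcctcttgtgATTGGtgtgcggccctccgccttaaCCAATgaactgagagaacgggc
Nags: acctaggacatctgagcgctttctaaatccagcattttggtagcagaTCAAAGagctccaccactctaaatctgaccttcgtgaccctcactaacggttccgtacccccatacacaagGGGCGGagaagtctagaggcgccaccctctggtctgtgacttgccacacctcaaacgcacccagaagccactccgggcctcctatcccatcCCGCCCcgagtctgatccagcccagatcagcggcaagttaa
Glul and Oat each held 2 CCAAT matches, a pattern found at least once in 33.8% of the 32851 upstream stretches in the table. Their matches lay within 113 and 47 bases of the start. None of the other 4 genes with an entry held CCAAT. Nags held 2 GGGCGG matches (32.7% of all stretches) and 1 CTTTGA match, as TCAAAG (13.8%). TATAAA was in none of the 6 (12.4%). These are matches of letters in a short window and describe no binding.

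Nags and Cps1 open the cycle in the mitochondrial matrix. Nags encodes N-acetylglutamate synthase, whose product is the obligate activator of carbamoyl phosphate synthetase 1, the enzyme that Cps1 encodes and that fixes ammonia. Nags lies on chromosome 11 from 102145513 to 102149477 (GRCm38) and its exons overlap the antisense gene Gm11586. Its level was 36.7, 40.3 and 40.05 FPKM in the vehicle libraries, against 48.6, 40.2 and 53.6 in the treated ones. ONX-0914 1 and 4 lay above every vehicle library and ONX-0914 3 among them. The log2 difference was 0.27 (SE 0.20, limma adjusted p = 0.291), in a setting where the median gene was at -0.64.

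Cps1, on chromosome 1 from 67123026 to 67231259, has 38 exons and the longest transcript of the 10, at 5555 bases. It was at 416, 457 and 459 FPKM in the vehicle libraries, against 71.5, 286 and 133 in the treated ones. The groups did not overlap, and ONX-0914 3 held 64.5% of the vehicle mean against 16.1% and 29.9% in ONX-0914 1 and 4. The log2 difference was -1.66 (SE 0.41, 95% interval -2.59 to -0.73, limma adjusted p = 0.0119). It passed without any 1 of the 6 libraries. ONX-0914 3 alone differed from the vehicle mean by -0.63, a value of 1 library with no test. The gene of the activator and that of the enzyme it activates moved apart within libraries. Their ratio, Cps1 over Nags, was 11.3, 11.3 and 11.5 in the vehicle libraries, against 1.47, 7.12 and 2.48 in the treated ones.

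Otc, on the X chromosome from 10252305 to 10321024, encodes ornithine transcarbamylase, which joins carbamoyl phosphate to ornithine and completes the mitochondrial part of the cycle. Its level was 470.2, 468 and 430.2 FPKM in the vehicle libraries, against 323, 402 and 281 in the treated ones. All 3 treated libraries lay below the vehicle libraries, with ONX-0914 3 nearest to them. The log2 difference of -0.46 (SE 0.20) did not pass (limma adjusted p = 0.0818). It passed without ONX-0914 3, at -0.60 (adjusted p = 0.0103). The ratio of Cps1 to Otc, neighbouring steps in the same compartment, was 0.885, 0.976 and 1.07 in the vehicle libraries and 0.221, 0.712 and 0.473 in ONX-0914 1, 3 and 4.

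The cytosolic steps run through argininosuccinate synthetase (Ass1, chromosome 2, 31470207 to 31520672), argininosuccinate lyase (Asl, chromosome 5, 130011258 to 130029247) and arginase (Arg1, chromosome 10, 24915221 to 24927484), which releases urea. Ass1 was at 1717, 1759 and 1477 FPKM in the vehicle libraries, against 1245, 1018 and 1074 in the treated ones. The groups did not overlap, and ONX-0914 3 was the lowest here, unlike for Cps1. This gave a log2 difference of -0.57 (SE 0.19, limma adjusted p = 0.035). The call was lost without any 1 vehicle library or without ONX-0914 4 (adjusted p between 0.0716 and 0.139).

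Asl was at 354, 434 and 446 FPKM in the vehicle libraries, against 389, 321 and 370.25 in the treated ones. The groups overlapped, and the log2 difference of -0.19 (SE 0.19, 95% interval -0.62 to 0.24) did not pass (limma adjusted p = 0.423). Arg1, beside Ass1 the highest of the 10 genes, was at 1498, 1635 and 1562 FPKM in the vehicle libraries, against 1369, 1409 and 1176 in the treated ones. All treated libraries were below all vehicle libraries, but the log2 difference of -0.25 (SE 0.18, 95% interval -0.66 to 0.16) did not pass (adjusted p = 0.277). Within a library Asl and Arg1 held a larger share relative to Ass1 after treatment. Asl over Ass1 was 0.206, 0.247 and 0.302 in the vehicle libraries, against 0.313, 0.315 and 0.345 in the treated ones. Arg1 over Ass1 was 0.873 to 1.06 with vehicle, against 1.09 to 1.38 after treatment.

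**Figure D1:**
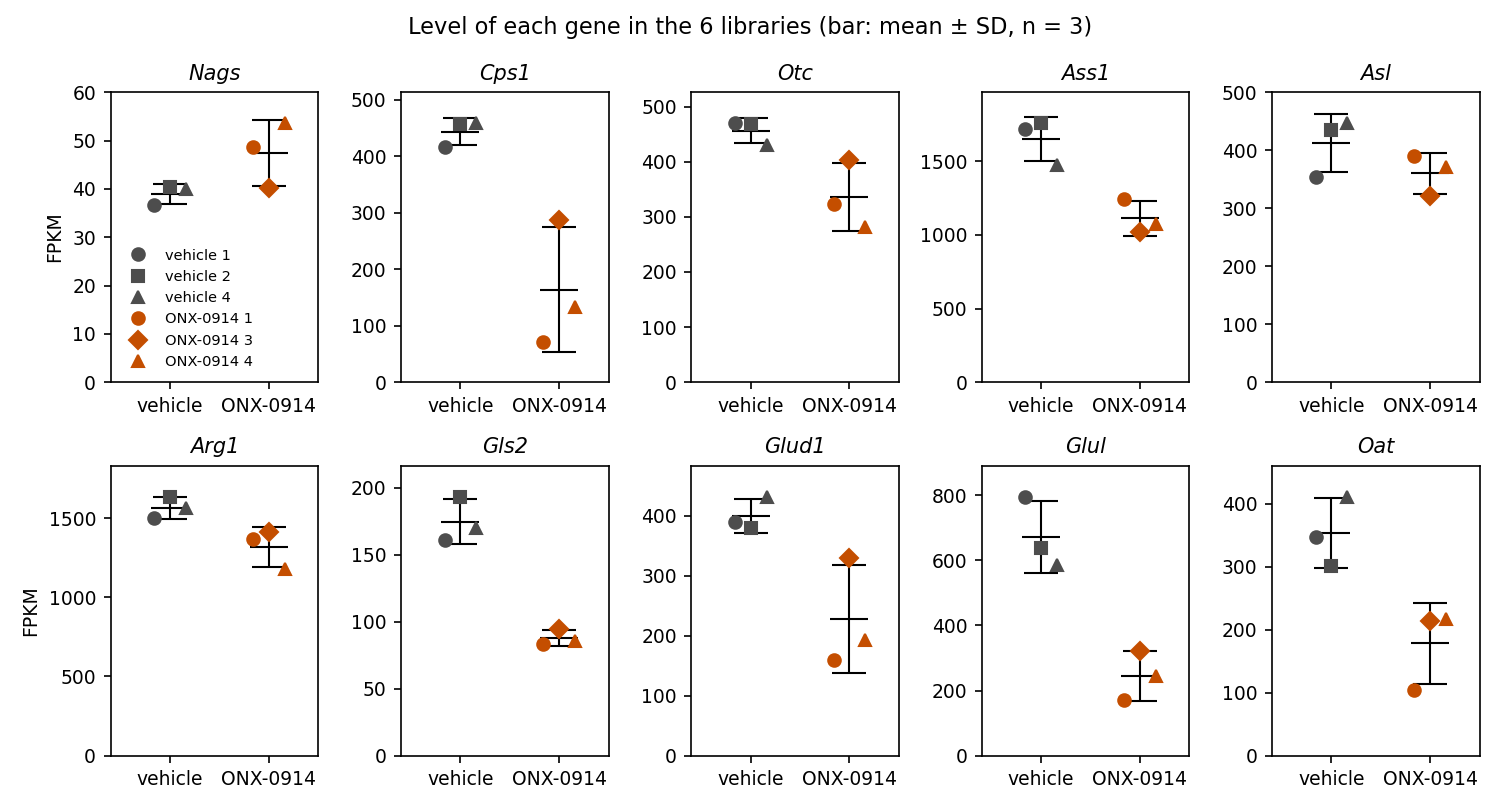
FPKM of each of the 10 genes (vertical axis from 0, a scale of its own per gene) in 3 vehicle (grey) and 3 ONX-0914 (orange) libraries, with the mean ± SD. The groups are apart for every gene other than Nags and Asl, and ONX-0914 3 (diamond) is the highest treated library for Cps1, Otc, Arg1, Gls2, Glud1 and Glul.

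Gls2 and Glud1 supply the cycle with ammonia and handle glutamate. Gls2, the liver glutaminase, lies on chromosome 10 from 128194457 to 128210004, and its exons overlap Spryd4 on the opposite strand. It was at 161, 193 and 169.95 FPKM in the vehicle libraries, against 83.15, 94.2 and 85.9 in the treated ones. This was the most even change of the 10 genes among treated libraries, with 47.6%, 53.9% and 49.2% of the vehicle mean. The log2 difference was -0.98 (SE 0.18, 95% interval -1.39 to -0.57, limma adjusted p = 0.00397), and it passed without any 1 library.

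Glud1, on chromosome 14 from 34310727 to 34345265, encodes glutamate dehydrogenase, which links glutamate to ammonia and the citric acid cycle. It was at 389, 379 and 432 FPKM in the vehicle libraries, against 159.9, 329 and 193 in the treated ones. The groups did not overlap, but ONX-0914 3 kept 82.3% of the vehicle mean. Its log2 difference was -0.88 (SE 0.27, limma adjusted p = 0.025). The call was lost without any 1 library other than ONX-0914 3 (adjusted p between 0.0624 and 0.0865).

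Glul, glutamine synthetase, lies on chromosome 1 from 153899944 to 153909723, and its exons overlap Teddm2 on the opposite strand and the microRNA gene Mir8114. It was at 796, 637 and 585 FPKM in the vehicle libraries, against 169.5, 323 and 245 in the treated ones. The highest treated value was below the lowest vehicle value. The log2 difference was -1.48 (SE 0.26, 95% interval -2.06 to -0.91, limma adjusted p = 0.00325), and it passed without any 1 library (adjusted p at most 0.0186). Oat, on chromosome 7 from 132557478 to 132576398, was at 348, 302 and 412 FPKM in the vehicle libraries, against 105, 214 and 218 in the treated ones. Its lowest value was in ONX-0914 1, and the groups did not overlap. The log2 difference was -1.04 (SE 0.29, limma adjusted p = 0.0193), lost without vehicle 1 or vehicle 4 (adjusted p = 0.0588 and 0.0723).

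The log2 differences depended on the scaling between libraries, and most calls ended under the median-ratio scalings but not under quantile normalization or equal sums. Median scaling moved the median of all genes to 0.00. It left none of the 10 genes lower and 1 higher, Nags (1.07, limma adjusted p = 0.0245), where 13.7% of all genes were called lower and 14.3% higher. Glul and Cps1 were then at -0.67 and -0.84 (adjusted p = 0.0714 and 0.113), and Otc, Ass1, Asl and Arg1 were above 0, at 0.36, 0.25, 0.63 and 0.57. With the same scaling over genes above 1 FPKM in every library (18.7% lower and 9.64% higher of all genes), Glul was lower (-0.89, adjusted p = 0.0274) and Nags higher (0.86, adjusted p = 0.0321), and no other of the 10 passed. After quantile normalization Cps1 (-1.51, adjusted p = 0.0329), Ass1 (-0.80, 0.0159), Gls2 (-0.74, 0.0192) and Glul (-1.42, 0.0121) were lower and Nags higher (0.73, 0.0343), where 12.4% of all genes were lower and 10.4% higher. Otc, Asl and Arg1 were below 0 there and did not pass (-0.39, -0.15 and -0.45). With libraries scaled to equal sums all 6 calls were kept and Otc was added (-0.61, adjusted p = 0.0489), where 47.4% of all genes were lower and 1.59% higher.

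Transcript length was the second shift. The treated libraries were lower for long transcripts, and the smoothed trend between treated and vehicle libraries was -0.93 at the length of Cps1 (5555 bases), -0.71 at that of Glul (2792 bases), -0.52 at that of Nags (2028 bases) and -0.30 at that of Arg1 (1477 bases). With each library's trend removed, Glul was lower (-0.78, limma adjusted p = 0.0322) and Nags higher (0.79, adjusted p = 0.037), where 11.4% of all genes were called lower and 9.52% higher. Cps1 was at -0.73 (adjusted p = 0.139), Oat at -0.49 (0.243), Gls2 at -0.31 (0.227), Ass1 at -0.17 (0.503) and Glud1 at -0.07 (0.813), these being the log2 difference and its adjusted p. What underlies the length trend was not tested.

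**Figure D2:**
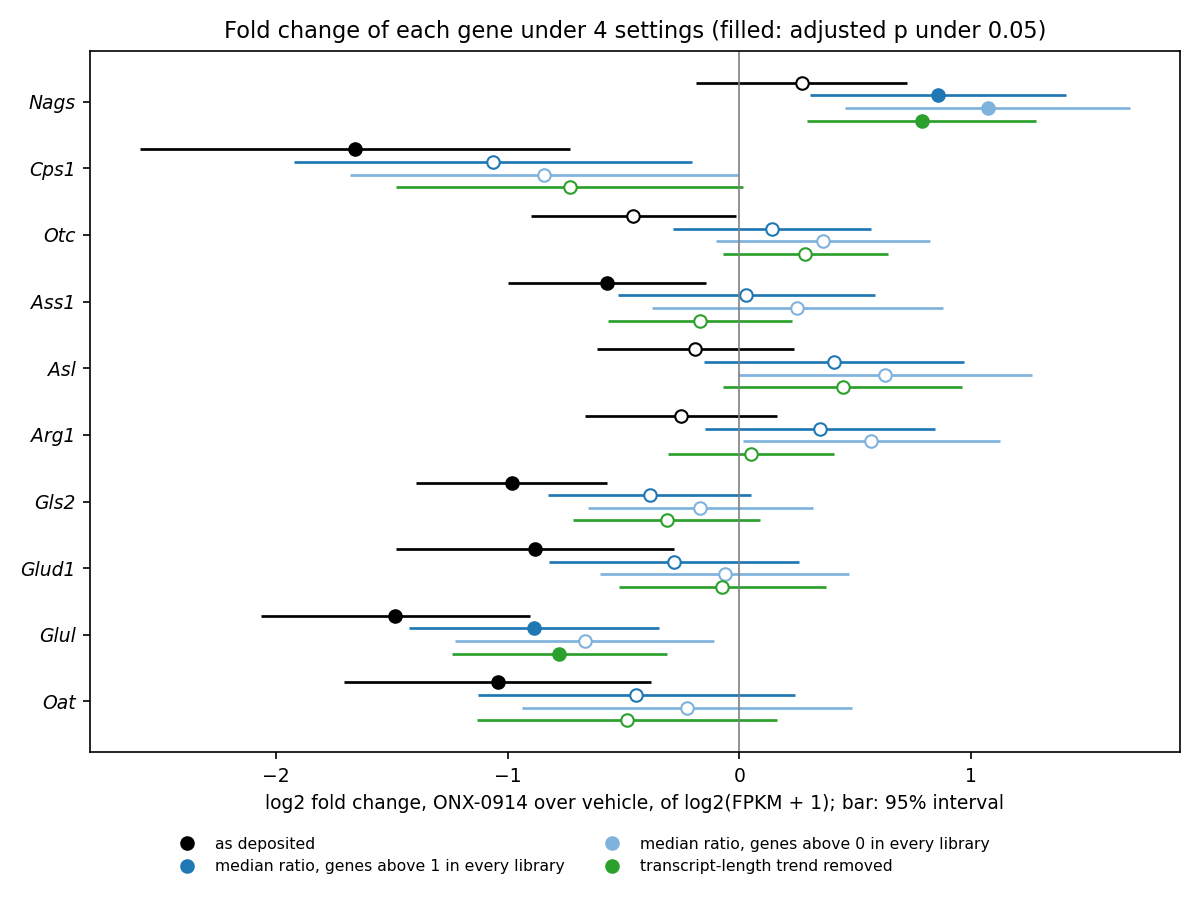
Log2 difference (ONX-0914 minus vehicle) with its 95% interval for the 10 genes under 4 settings, with filled points for an adjusted p under 0.05. Glul is below 0 and Nags above 0 under all 4 drawn, with Glul called in 3 and Nags in 3, while Otc, Asl and Arg1 change sign between the deposited values and the other settings, and Ass1 does in both median-ratio settings.

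Ratios within a library do not depend on a scaling by 1 factor per library, but they keep the length trend and were not corrected for it. That trend was -0.93 for Cps1 against -0.52 for Nags, and -0.71 for Glul against -0.30 for Arg1. The pericentral Glul was lower relative to the cytosolic urea cycle genes Arg1 and Ass1. Glul over Arg1 was 0.531, 0.389 and 0.374 in the vehicle libraries, against 0.124, 0.229 and 0.208 in the treated ones, and Glul over Ass1 was 0.362 to 0.463 with vehicle, against 0.136 to 0.317 after treatment. The groups did not overlap in either ratio. For Oat, the other gene of the pericentral pair, the groups overlapped in its ratios to Arg1 and Otc. Oat over Arg1 was 0.1845 to 0.263 with vehicle, against 0.0765 to 0.1852 after treatment. Oat over Otc was 0.645 to 0.957 with vehicle, against 0.324 to 0.775 after treatment. Relative to the mitochondrial entry gene the order was lost, since Glul over Cps1 was 1.27 to 1.91 with vehicle, against 1.13 to 2.37 after treatment. Glul over Gls2, the synthetase against the glutaminase, also overlapped, at 3.29 to 4.94 and 2.04 to 3.43. Gls2 over Nags did not, at 4.24 to 4.80 and 1.602 to 2.34. With 3 libraries against 3, an exact permutation test cannot give a two-sided p below 0.1, and these ratios were not tested.

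**Figure D3:**
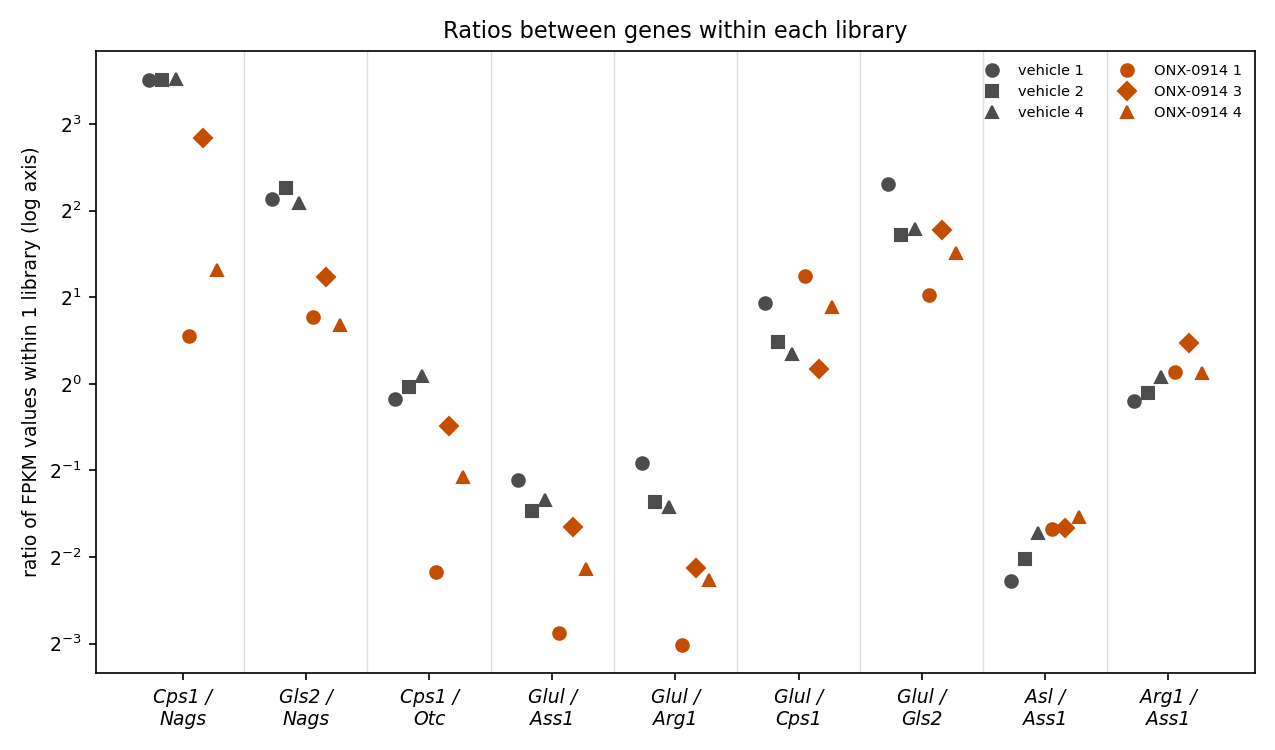
Ratio of FPKM values of 2 genes within 1 library (log axis), without length correction, for 3 vehicle (grey) and 3 ONX-0914 (orange) libraries. Cps1 over Nags is 11.3 to 11.5 in vehicle and 1.47 to 7.12 in treated libraries, and Glul over Arg1 and over Ass1 are lower in all treated libraries, while Glul over Cps1 and over Gls2 overlap.

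Grouped by zone, the 7 periportal genes (Nags, Cps1, Otc, Ass1, Asl, Arg1 and Gls2) had a median log2 difference of -0.46 with 3 called lower, and the pericentral Glul and Oat were both called lower. Their summed levels were 4585 to 4987 FPKM with vehicle, against 3173 to 3571 after treatment for the periportal genes, and 939 to 1143 and 274 to 537 for the pericentral pair. The mean log2(FPKM + 1) of the periportal genes minus that of the pericentral pair was -0.48, -0.08 and -0.32 in the vehicle libraries, against 0.91, 0.18 and 0.17 in the treated ones. All 3 treated libraries lay above all vehicle libraries. The group means differed by 0.71 (vehicle -0.29 ± 0.20, treated 0.42 ± 0.42, SD, n = 3 each), by 0.47 without ONX-0914 1 and by 0.68 after length correction. This score over chosen genes was not tested. Within the periportal group Cps1 and Gls2 stood nearer to Glul and Oat than to Nags, Asl and Arg1.

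Zonal markers outside the 10 genes were counted in the same way. Of 16 tested periportal markers 10 fell and 2 rose (median log2 difference -1.05), and of 15 tested pericentral markers 7 fell and 1 rose (median -0.82), beside 43.5% of all genes lower and 2.56% higher. The pericentral count is near that share. After median scaling these were 2 lower and 3 higher, and 1 lower and 2 higher, where 13.7% of all genes were lower and 14.3% higher. After quantile normalization they were 6 lower and 2 higher, and 3 lower and 1 higher, where 12.4% of all genes were lower and 10.4% higher. The periportal markers had the lower median, also after median scaling (-0.24 against -0.14) and length correction (-0.44 against -0.17). Among the 10 genes the order of the medians was the reverse, at -0.46 for the periportal genes and -1.26 for the pericentral pair as deposited. Cyp2f2, Sds and Hal were set to be named whatever their values. They are among the 4 tested periportal markers that were not called, and do not stand for the list. Cyp2f2, a cytochrome P450, was at 513 to 683 FPKM with vehicle, against 266 to 702 after treatment (-0.51, limma adjusted p = 0.222). Sds, serine dehydratase, and Hal, histidine ammonia-lyase, which both release ammonia from amino acids, were at 0.19 (adjusted p = 0.426) and -0.29 (adjusted p = 0.417). Hsd17b6, a hydroxysteroid dehydrogenase, rose (1.47), also after median scaling (2.27) and length correction (1.79). Pigr, the polymeric immunoglobulin receptor and 1 of the 10 that fell, did so (-2.23) as deposited only among these settings (limma adjusted p = 0.0564 and 0.0625 in the other 2).

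Among pericentral genes, Cyp2e1 was at 2791 to 3441 FPKM with vehicle, against 1988 to 3284 after treatment (-0.21, limma adjusted p = 0.498). Slc1a2, a glutamate transporter of the same cell layer as Glul, fell from 46.5 ± 2.94 to 25.2 ± 9.28 FPKM (n = 3 each, -0.93, adjusted p = 0.0291), but did not pass after median scaling (-0.14, adjusted p = 0.732) or length correction (-0.17, adjusted p = 0.679). Rhbg, an ammonia transporter of that layer, was at 9.24 to 9.69 FPKM in vehicle and at 3.00, 5.41 and 8.97 in ONX-0914 1, 3 and 4 (-0.71, adjusted p = 0.11). Cyp2c29 fell (-2.10), and Cyp1a2, named after its values were seen as the 1 called rise, was at 0.74 (adjusted p = 0.0396). Its groups overlapped, at 111 to 179 and 178 to 287 FPKM, and no pericentral marker was called higher without vehicle 1, vehicle 4 or ONX-0914 4.

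**Figure D4:**
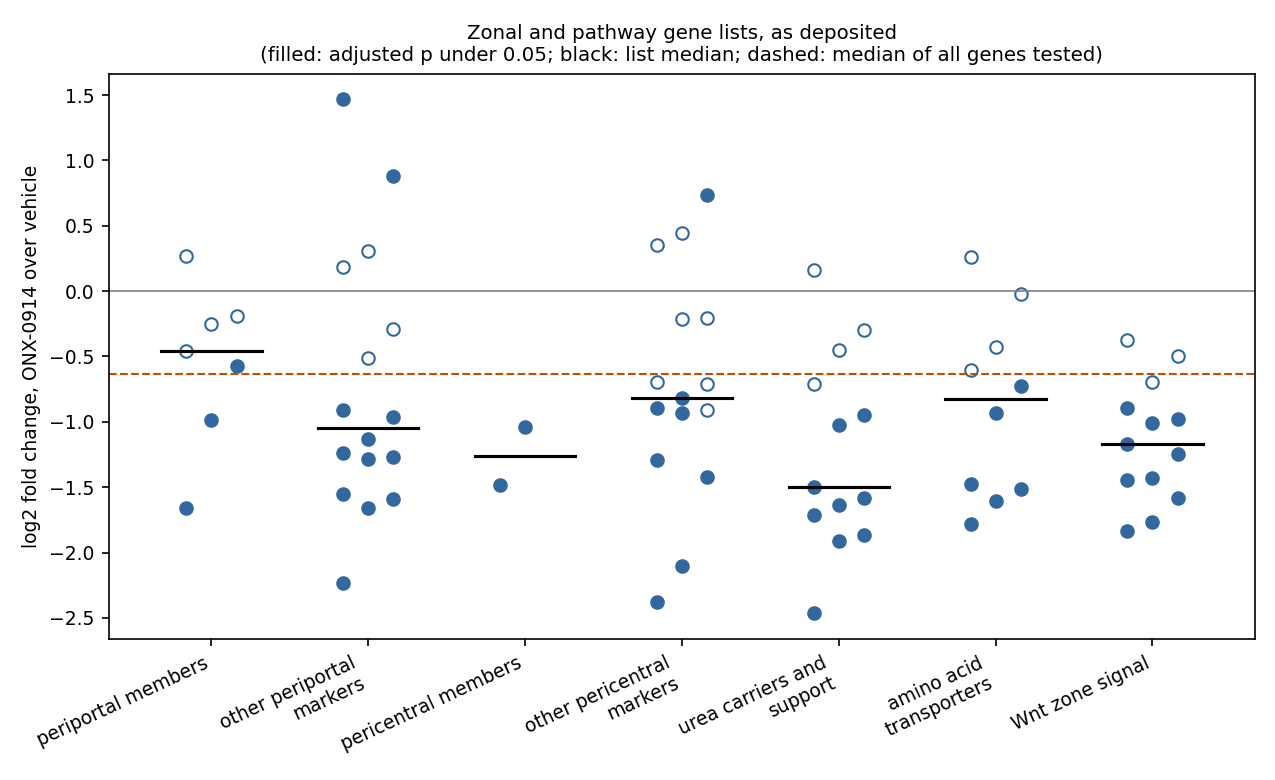
Log2 difference (ONX-0914 minus vehicle) of each tested gene in 7 lists, with filled points for an adjusted p under 0.05, the list median in black and the median of all genes (-0.64) dashed. The 2 pericentral genes of the set lie below the dashed line and the other pericentral markers spread on both sides of it.

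Carriers connect the mitochondrial and cytosolic parts of the cycle. Of 15 genes for carriers, bicarbonate supply, deacylation and transport of ammonia or urea, 13 were tested, 9 fell and none rose, with a median log2 difference of -1.50, beside 43.5% of all genes lower. After median scaling 4 fell and 1 rose (13.7% and 14.3% of all genes), and after length correction 5 fell and none rose (11.4% and 9.52%). After quantile normalization 6 fell and none rose (12.4% and 10.4%). Slc25a15, the ornithine carrier, was at 116, 117 and 127 FPKM in the vehicle libraries, against 19.5, 52.4 and 32.1 in the treated ones. Its log2 difference was -1.87 (SE 0.32, limma adjusted p = 0.00304), and it passed after median scaling (-1.07, adjusted p = 0.0261) and after length correction (-1.06, adjusted p = 0.0239).

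Slc25a13, citrin, which exports the aspartate that Ass1 uses, was at 65.4, 74.1 and 70.3 FPKM in the vehicle libraries, against 6.77, 21.2 and 11.3 in the treated ones. It too passed in all 3 settings, at -2.46, -1.69 and -1.70 (limma adjusted p = 0.0018, 0.0101 and 0.00815). Car5a, the mitochondrial carbonic anhydrase that supplies bicarbonate to Cps1, fell from 73.7 ± 2.09 to 26.4 ± 9.14 FPKM (n = 3 each), a log2 difference of -1.50 that passed after length correction (-1.32, adjusted p = 0.0111) and not after median scaling (-0.70, adjusted p = 0.149). Aqp9, a channel for glycerol and urea, had a log2 difference of -1.91 (adjusted p = 0.00752) that did not pass after median scaling (0.0737) or length correction (0.0573). Slc25a12, another aspartate carrier, was at -1.72 and passed in both (-1.03 and -0.80). Agmat, agmatinase, named after its values were seen, was at 101 to 109 FPKM with vehicle, against 107 to 122 after treatment (0.16, adjusted p = 0.463). Agmat was called higher after median scaling (0.98, adjusted p = 0.0242) and did not pass after length correction (0.43, adjusted p = 0.0927). Slc25a13 and Slc25a15 thus stood at lower fractions of their vehicle level than Ass1 or Otc, the enzymes they serve.

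Of 15 transporters of glutamine, glutamate and basic amino acids, 10 were tested, 6 fell and none rose (median -0.83), beside 43.5% of all genes lower. After median scaling and after length correction 2 fell and 1 rose each time, near the shares of all genes (13.7% and 11.4% lower). Slc38a3, the main glutamine transporter of hepatocytes, was at 534, 629.9 and 393 FPKM in the vehicle libraries, against 84.6, 267 and 141 in the treated ones (log2 difference -1.78, SE 0.38, limma adjusted p = 0.00637). It was at -0.97 after median scaling (adjusted p = 0.0592) and at -1.02 after length correction (adjusted p = 0.0494). Slc7a2, an arginine and ornithine transporter, had a log2 difference of -1.61 (adjusted p = 0.0114) that did not pass after median scaling (0.0801) or length correction (0.0912). Slc7a8, a neutral amino acid exchanger at 1.87 to 3.37 FPKM in vehicle, was at -1.52, and passed after median scaling (adjusted p = 0.0104) and not after length correction (0.0809).

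Of 24 further enzymes that make or use glutamine, glutamate, ornithine or arginine, 22 were tested, 9 fell and none rose (median -0.56), near the 43.5% lower and the median of -0.64 over all genes. After median scaling 2 were lower and 3 higher, and after length correction 3 and 5. Both settings centre the libraries and move the balance of all genes, to 13.7% lower and 14.3% higher and to 11.4% and 9.52%. Aldh4a1, which turns the product of Oat into glutamate, was at 108, 123 and 117 FPKM in the vehicle libraries, against 9.35, 31.3 and 20.3 in the treated ones (-2.60, limma adjusted p = 0.0018). Gatm, which uses arginine for creatine synthesis, went from 8.63 ± 2.21 to 1.18 ± 0.43 FPKM (n = 3 each). Both also passed after median scaling (-1.81 and -1.55) and after length correction (-1.79 and -1.51). Got2, the mitochondrial aspartate aminotransferase, had a log2 difference of -1.75 (adjusted p = 0.00765), which passed after length correction (adjusted p = 0.0495) and not after median scaling (0.0651). Gpt2, the mitochondrial alanine aminotransferase, was at -1.61 and passed in neither (adjusted p = 0.104 and 0.116). Asns, asparagine synthetase, also named after its values were seen, was at 12.4, 13.8 and 20.0 FPKM in the vehicle libraries, against 34.3, 16.6 and 32.2 in the treated ones (0.77, adjusted p = 0.0719), and passed after median scaling (1.55, adjusted p = 0.0273) and after length correction (1.29, adjusted p = 0.0387).

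Regulators of the 2 zones were read from the same fit. Wnt and R-spondin signals from endothelial cells of the central vein maintain Glul and Oat. Of 20 genes of this signal 13 were tested, 10 fell and none rose (median -1.17), beside 43.5% of all genes lower. After median scaling 5 fell, and after length correction 4, beside 13.7% and 11.4% of all genes. Rspo3, a secreted R-spondin, was at 5.35, 4.46 and 3.08 FPKM in the vehicle libraries, against 0.40, 0.37 and 0.62 in the treated ones (-1.84). Wnt2 was at 1.72 to 2.66 FPKM with vehicle, against 0.06 to 0.26 after treatment (-1.43), and Wnt9b was at or below 0.44 in every library. Rspo3 and Wnt2 were above 1 FPKM in the vehicle libraries alone and entered the test only through that group. Their p-values are therefore not given, and the count of 10 includes both. The log2 differences of Rspo3 and Wnt2 were -1.36 and -1.13 after median scaling, and -1.08 and -0.84 after length correction. Endothelial cells make both, and other cell types were not examined as sources. All 15 endothelial markers and 9 of 12 stellate cell markers fell as deposited, and the part of these falls in the values of Rspo3 and Wnt2 was not tested. Ctnnb1, beta-catenin, was at -1.77 (-0.98 and -0.93 in the other 2 settings, passing in each). The target genes Axin2 (-0.89) and Tbx3 (-1.42) did not pass in either of these, and Lgr5, at 0.75 to 1.89 FPKM with vehicle, against 0.07 to 0.49 after treatment, was too low to be tested.

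Of 18 receptors and factors that act on urea cycle or hepatocyte genes, 17 were tested, 7 fell and none rose (median -0.95), near the 43.5% of all genes lower. After median scaling 3 were lower and 1 higher, and after length correction 2 and 1, where 13.7% and 11.4% of all genes were lower. Gcgr, the receptor of glucagon, the hormone that raises urea cycle enzymes, was at 137, 160.3 and 138 FPKM in the vehicle libraries, against 206, 138 and 222 in the treated ones (0.35, limma adjusted p = 0.221). It passed after median scaling (1.16, adjusted p = 0.0322) and after length correction (0.84, adjusted p = 0.0499). Nr3c1, the glucocorticoid receptor, was at 9.62, 9.65 and 7.70 FPKM in the vehicle libraries, against 0.64, 2.36 and 0.91 in the treated ones. It passed in all 3 settings, at -2.18, -1.61 and -1.27 (adjusted p = 0.0019, 0.00812 and 0.00771). Hnf4a (-2.23) and Cebpa (-1.51), hepatocyte transcription factors, passed as deposited but not after median scaling (adjusted p = 0.0675 and 0.186) or after length correction (adjusted p = 0.0823 and 0.129). Hnf4a, like Cps1 and Glud1, was nearest to vehicle in ONX-0914 3, at 40.7 FPKM against 6.26 and 5.94 in ONX-0914 1 and 4 and 51.7 to 68.6 in vehicle.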

How the data were processed

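Liver RNA of 6 libraries was compared. The authors deposited 1 matrix, and its unit was taken to be FPKM because the values are not whole and their sums differ by library. The submitters' processing notes list edgeR, featureCounts 1.6.0, HISAT2 2.0.1, cutadapt 1.11 and FastQC 0.11.5, and the builds mm10 and GRCm38, with no roles. Strand and annotation are not given in the sources used here, so reads of overlapping genes cannot be told apart. Absolute depth is unknown.

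All tested genes were fitted with limma 3.58.1 (variance trend, two-sided) in R 4.3.3, with a pseudocount of 1, which makes differences of low genes too small. A gene above 1 FPKM in the libraries of 1 group alone also passed the filter, which favours low genes that are high in that group. Simulated data were used to check whether the fit recovers differences that were put in. They held no length trend and no shift of most genes, so they do not bear on the calls made here. Length trends were lowess curves (span 0.3) against the longest coding transcript in GENCODE M21, available for 99.4% of those genes, and removing them centres each library. The genes named were the 10 members, up to 6 called genes per list and some chosen singly, not all printed. Members and lists were chosen with earlier results of these data known. Slc1a2, Rhbg, Axin2, Lgr5 and Hnf4a each stand in 2 lists. Alternatives covered pseudocount, filter, scaling, length, left-out libraries, a replicate block and a robust fit.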

Additional observations from a re-analysis of the deposited data

How the results depend on the processing

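As deposited, 6 of the 10 genes were lower and 0 higher; at an unadjusted p under 0.05, 7 were lower and 0 higher. The counts were 0 lower and 1 higher after median scaling, 1 and 1 with that scaling over genes above 1 in every library (chosen after the data were seen), 1 and 1 after length correction, and 4 and 1 after quantile normalization. Leaving out 1 library gave 3 to 7 lower and 0 higher; the 3 came without vehicle 1 or vehicle 4. The pseudocount, both filters and the robust fit kept the counts at 6 and 0, and equal sums gave 7 and 0. Signs turned for Otc (0.36, 0.14 and 0.28), Asl (0.63, 0.41 and 0.45) and Arg1 (0.57, 0.35 and 0.0501) in the first median-ratio scaling, the second and the length removal, and for Ass1 in the first 2 (0.25 and 0.0295). Median scaling moved all genes' median from -0.64 to 0.00 by construction. The zonal contrast ranged from 0.47 to 0.90 over all its alternatives, the latter without Cps1 (chosen after the data were seen). With the replicate number as a block (residual degrees of freedom of 1), vehicle 2 and ONX-0914 3 were alone in their blocks. They add nothing to the difference, which then rests on libraries 1 and 4 of each group. In that fit 6 were lower and 0 higher, but Otc passed (-0.58, limma adjusted p = 0.0419) and Ass1 did not (-0.46, adjusted p = 0.0925). Deviations of same-numbered libraries correlated at 0.00 for number 1 and 0.13 for number 4, the highest of the 9 pairs across groups; with only 2 such pairs, whether the numbers mark shared samples was not settled. Read counts were not given, so counting error per gene is unknown.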
